A study of Mus musculus with 9 samples.

Results

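The genes described here install or remove N6-methyladenosine (m6A) on RNA: the catalytic core Mettl3 and Mettl14, the stand-alone methyltransferase Mettl16, the regulatory subunits Wtap, Virma, Zc3h13, Rbm15 and Cbll1, and the demethylases Fto and Alkbh5. They were chosen by symbol, and all 10 were found among the 53647 genes of the table. All 10 also passed the filter on low counts, which left 13661 genes for testing. The RNA came from Hepa 1-6 cells, a mouse hepatoma line, in 3 groups of 3 libraries. Usp5 knockout cells (Usp5 KO) were made with a lentiviral CRISPR guide against Usp5, a deubiquitinase. Ythdf1 knockout cells (Ythdf1 KO) were made with a plasmid for CRISPR/Cas9 and EGFP against Ythdf1, a cytoplasmic m6A reader. Control cells carried a control guide (sgControl). Knockout lines were derived from single cells by dilution and checked by immunoblot, and how many clones stand behind the 3 libraries of a group is not stated in the labels. The study's stated purpose was to set the expression changes of both knockouts side by side, with emphasis on immune genes.

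In most mammalian mRNAs, m6A is written by a nuclear complex in which METTL3 transfers the methyl group and METTL14 supports RNA binding. WTAP anchors this core to VIRMA, ZC3H13, CBLL1 and RBM15, which place it in the nucleus and on its targets, while METTL16 methylates a small set of structured RNAs, among them the mRNA of the S-adenosylmethionine synthetase MAT2A. FTO and ALKBH5 are dioxygenases that remove methyl groups from adenosine, and readers such as the YTH proteins bind the mark.

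Library totals ran between 24760877 and 42989715 counts. Usp5 stood at 123, 113 and 110 CPM (counts scaled to the library total after TMM correction) in Usp5 KO cells and at 233, 223 and 183 CPM in control cells, a log2 fold change of -0.89 (edgeR, adjusted p = 0.000316). Ythdf1 stood at 49.2, 45.7 and 49.8 CPM in Ythdf1 KO cells and at 190, 181 and 195 CPM in control cells, a log2 fold change of -1.97 (edgeR, adjusted p = 1.21e-07). Both transcripts thus remained detectable in their own knockout. Across knockouts, the log2 fold change against control was 0.10 for Ythdf1 in Usp5 KO cells (edgeR, adjusted p = 0.368) and 0.07 for Usp5 in Ythdf1 KO cells (edgeR, adjusted p = 0.637). The summed level of 8 hepatocyte markers was 1740 to 1950 CPM in Usp5 KO, 2290 to 2450 CPM in Ythdf1 KO and 1350 to 1420 CPM in control libraries. It was carried by Alb, Trf, Hnf4a and Fgb, while Apoa1, Ttr and Ahsg lay near 0. Leukocyte markers summed to at most 2.09 CPM in any library and endothelial markers to at most 1.22 CPM. The stellate and fibroblast list summed to 1080 to 1410 CPM in Usp5 KO, 1060 to 1290 CPM in Ythdf1 KO and 854 to 1270 CPM in control libraries, with 2 of its 6 genes at 0. Dcn alone made up that sum (a mean of 1237 CPM in Usp5 KO, 1151 CPM in Ythdf1 KO and 998 CPM in control cells), and Col1a1 averaged under 1 CPM in each group. In bulk RNA, fewer cells of a type and less RNA per cell cannot be told apart.

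Promoter windows from RefSeq (GRCm38.p6, 250 bases before the start to 50 after it) were held for 8 of the 10 genes, with none for Mettl14 or Virma. Those of 4 genes whose transcripts differed from control in the Ythdf1 KO cells are shown so that their letters can be compared. Each is written 5′ to 3′ on the strand of its gene, with motif matches in capitals. The Mettl3 window lies at chr14:52305075-52305374 on the minus strand, Mettl16 at chr11:74770613-74770912 on the plus strand, Alkbh5 at chr11:60537433-60537732 on the plus strand and Rbm15 at chr3:107333240-107333539 on the minus strand.
Mettl3: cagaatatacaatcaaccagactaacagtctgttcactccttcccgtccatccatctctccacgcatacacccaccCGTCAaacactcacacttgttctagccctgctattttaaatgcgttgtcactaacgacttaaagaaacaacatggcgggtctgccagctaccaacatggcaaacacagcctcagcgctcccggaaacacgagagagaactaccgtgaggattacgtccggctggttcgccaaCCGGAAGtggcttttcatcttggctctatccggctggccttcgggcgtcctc
Mettl16: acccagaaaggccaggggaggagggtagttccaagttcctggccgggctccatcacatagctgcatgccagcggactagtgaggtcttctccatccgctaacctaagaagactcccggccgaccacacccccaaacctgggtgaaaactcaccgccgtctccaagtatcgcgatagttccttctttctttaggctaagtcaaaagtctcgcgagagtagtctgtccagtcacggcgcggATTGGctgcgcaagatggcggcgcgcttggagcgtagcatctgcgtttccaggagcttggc
Alkbh5: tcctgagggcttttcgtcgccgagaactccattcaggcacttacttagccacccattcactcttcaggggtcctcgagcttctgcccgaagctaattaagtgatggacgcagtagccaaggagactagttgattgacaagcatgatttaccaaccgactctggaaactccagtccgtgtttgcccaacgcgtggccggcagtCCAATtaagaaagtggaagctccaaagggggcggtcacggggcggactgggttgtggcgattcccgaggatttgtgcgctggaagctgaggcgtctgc
Rbm15: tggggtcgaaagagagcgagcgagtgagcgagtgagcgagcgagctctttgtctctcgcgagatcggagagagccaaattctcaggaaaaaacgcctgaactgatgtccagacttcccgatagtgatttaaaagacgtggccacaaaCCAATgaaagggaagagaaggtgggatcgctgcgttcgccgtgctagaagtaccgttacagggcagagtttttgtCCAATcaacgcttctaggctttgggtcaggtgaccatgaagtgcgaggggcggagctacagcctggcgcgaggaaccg
Both strands were searched for CCAAT, the ETS-type site CCGGAAG, the cyclic AMP response half-site TGACG, the ATF4-type element TGATGNAA and the TATA box TATAAA, a choice made after windows had been searched. The Mettl3 window held 1 ETS-type site and 1 cyclic AMP half-site, and no CCAAT. Mettl16 and Alkbh5 each held CCAAT 1 time, in Mettl16 on the opposite strand as ATTGG, and Rbm15 held it 2 times. Of 32851 such windows, 37.4% held CCAAT, 8.86% the ETS-type site, 20.8% the half-site, 3.97% the ATF4-type element and 13.6% the TATA box. Of the windows not shown, Cbll1 held 1 ETS-type site, Zc3h13 held 1 ETS-type site and 2 half-sites, and Fto held no match. The Wtap windows held CCAAT 1 time or no match. These matches describe letters only.

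**Figure D1:**
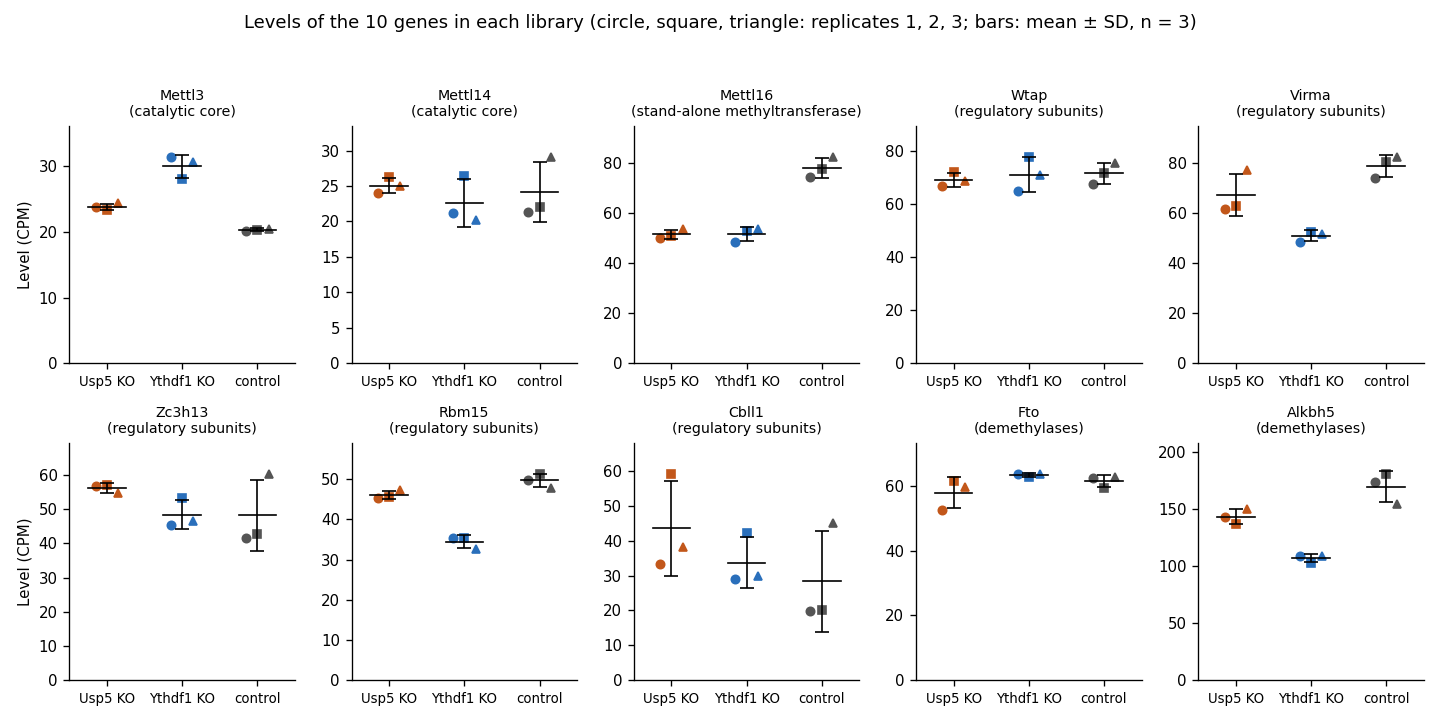
Level of each gene in CPM (vertical axes, from 0) in Usp5 KO, Ythdf1 KO and control libraries, with symbols for replicates and bars for the mean and SD of 3. Mettl16 lay lower in both knockouts than in control, and Cbll1 had 1 library far above the others in each group.

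Mettl3, the subunit that carries the catalytic site, was highest in the Ythdf1 KO cells. It stood at 23.8, 23.4 and 24.3 CPM in Usp5 KO, at 31.4, 28.1 and 30.7 CPM in Ythdf1 KO and at 20.1, 20.4 and 20.5 CPM in control libraries. The 3 groups did not overlap. Mettl3 rose in Ythdf1 KO against control by 0.56 ± 0.0757 on the log2 scale (SE; edgeR, adjusted p = 0.000249). In Usp5 KO cells the log2 fold change of 0.23 ± 0.0756 lay just outside the threshold of 0.05 (edgeR, adjusted p = 0.0573). The direct comparison of Usp5 KO with Ythdf1 KO gave -0.33 ± 0.0755 (edgeR, adjusted p = 0.0047).

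Mettl14, the partner that supports RNA binding, had 24.0, 26.2 and 24.99 CPM in Usp5 KO, 21.2, 26.5 and 20.2 CPM in Ythdf1 KO and 21.4, 22.0 and 29.1 CPM in control libraries. All groups overlapped, and no comparison passed the test before GC and length trends were removed. Its log2 fold change against control was 0.06 in Usp5 KO (95% interval -0.25 to 0.36) and -0.09 in Ythdf1 KO cells (-0.40 to 0.22).

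Mettl16 alone of the 10 genes passed the test as lower in both knockouts. It stood at 50.1, 50.6 and 53.4 CPM in Usp5 KO, at 48.5, 52.7 and 53.8 CPM in Ythdf1 KO and at 74.4, 77.4 and 82.2 CPM in control libraries. Every knockout library lay below every control library, and the knockouts overlapped with each other. The log2 fold change against control was -0.60 ± 0.0752 in Usp5 KO (edgeR, adjusted p = 0.000386) and -0.59 ± 0.0753 in Ythdf1 KO cells (edgeR, adjusted p = 0.000185). With GC and length trends removed the Ythdf1 KO value was -0.27 and still passed. Both knockouts share the control libraries. Between Usp5 KO and Ythdf1 KO the difference was -0.01, with a 95% interval of -0.18 to 0.16. With the trends removed, that difference was -0.28 and passed the test (edgeR, adjusted p = 0.00599). Alkbh5 and Rbm15 also lay below control in every library of both knockouts. In Usp5 KO they did not pass the test, though Alkbh5 lay close to the threshold (edgeR, adjusted p = 0.055).

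Among the regulatory subunits, Virma and Rbm15 fell in the Ythdf1 KO cells, by less once GC and length trends were removed (-0.23 for Virma, and -0.13 for Rbm15, which then did not pass). Virma, the large scaffold of the complex, had 61.7, 62.8 and 76.9 CPM in Usp5 KO, 48.4, 52.5 and 51.5 CPM in Ythdf1 KO and 73.7, 80.3 and 82.1 CPM in control libraries. The Ythdf1 KO libraries lay below all others, and the Usp5 KO libraries overlapped with control through replicate 3. Virma changed by -0.63 ± 0.0968 in Ythdf1 KO against control (edgeR, adjusted p = 0.000537) and its log2 fold change in Usp5 KO was -0.23 (edgeR, adjusted p = 0.117). Without Usp5 KO replicate 3 this value became -0.34 and passed the test (edgeR, adjusted p = 0.0189).

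Rbm15, which binds RNA and recruits the complex, stood at 45.4, 45.6 and 47.3 CPM in Usp5 KO, at 35.4, 35.3 and 32.6 CPM in Ythdf1 KO and at 49.9, 51.2 and 47.8 CPM in control libraries. The groups did not overlap. Its log2 fold change against control was -0.53 ± 0.0727 in Ythdf1 KO (edgeR, adjusted p = 0.000286) and -0.11 in Usp5 KO cells (edgeR, adjusted p = 0.324). Usp5 KO against Ythdf1 KO gave 0.42 for Rbm15 (edgeR, adjusted p = 0.00102) and 0.40 for Virma (edgeR, adjusted p = 0.00666).

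Wtap, the adaptor between core and scaffold, had 67.0, 72.1 and 68.9 CPM in Usp5 KO, 64.9, 77.8 and 71.2 CPM in Ythdf1 KO and 67.9, 71.7 and 75.4 CPM in control libraries. Zc3h13, which holds the complex in the nucleus, had 56.7, 57.3 and 54.7 CPM in Usp5 KO, 45.3, 53.2 and 46.6 CPM in Ythdf1 KO and 41.6, 42.8 and 60.3 CPM in control libraries. For both genes the knockouts overlapped with control. No comparison passed the test for Zc3h13, and none for Wtap before GC and length trends were removed. Cbll1, a RING finger subunit also called Hakai, had 33.2, 59.1 and 38.2 CPM in Usp5 KO, 29.1, 42.2 and 29.9 CPM in Ythdf1 KO and 19.97, 19.98 and 44.9 CPM in control libraries. One library in each group stood above its companions, and the log2 fold changes against control, 0.63 ± 0.324 in Usp5 KO (edgeR, adjusted p = 0.2) and 0.27 ± 0.326 in Ythdf1 KO (edgeR, adjusted p = 0.53), did not pass the test.

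Alkbh5, a nuclear demethylase, was lowest in the Ythdf1 KO cells. Fto did not pass the test in any comparison before GC and length trends were removed. Alkbh5 stood at 143, 137 and 150 CPM in Usp5 KO, at 109, 103 and 109 CPM in Ythdf1 KO and at 174, 181 and 155 CPM in control libraries. The 3 groups did not overlap. Against control, Alkbh5 fell by 0.67 on the log2 scale in Ythdf1 KO (SE 0.0805; edgeR, adjusted p = 0.000143), and its log2 fold change of -0.25 ± 0.0801 in Usp5 KO lay just outside the threshold (edgeR, adjusted p = 0.055). Usp5 KO against Ythdf1 KO gave 0.42 ± 0.0804 (edgeR, adjusted p = 0.00184). Fto, the other demethylase, had 52.4, 61.4 and 59.7 CPM in Usp5 KO, 63.6, 62.7 and 63.6 CPM in Ythdf1 KO and 62.4, 59.4 and 62.7 CPM in control libraries. Its log2 fold change against control was -0.09 in Usp5 KO (95% interval -0.26 to 0.08) and 0.04 in Ythdf1 KO cells (-0.13 to 0.21).

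**Figure D2:**
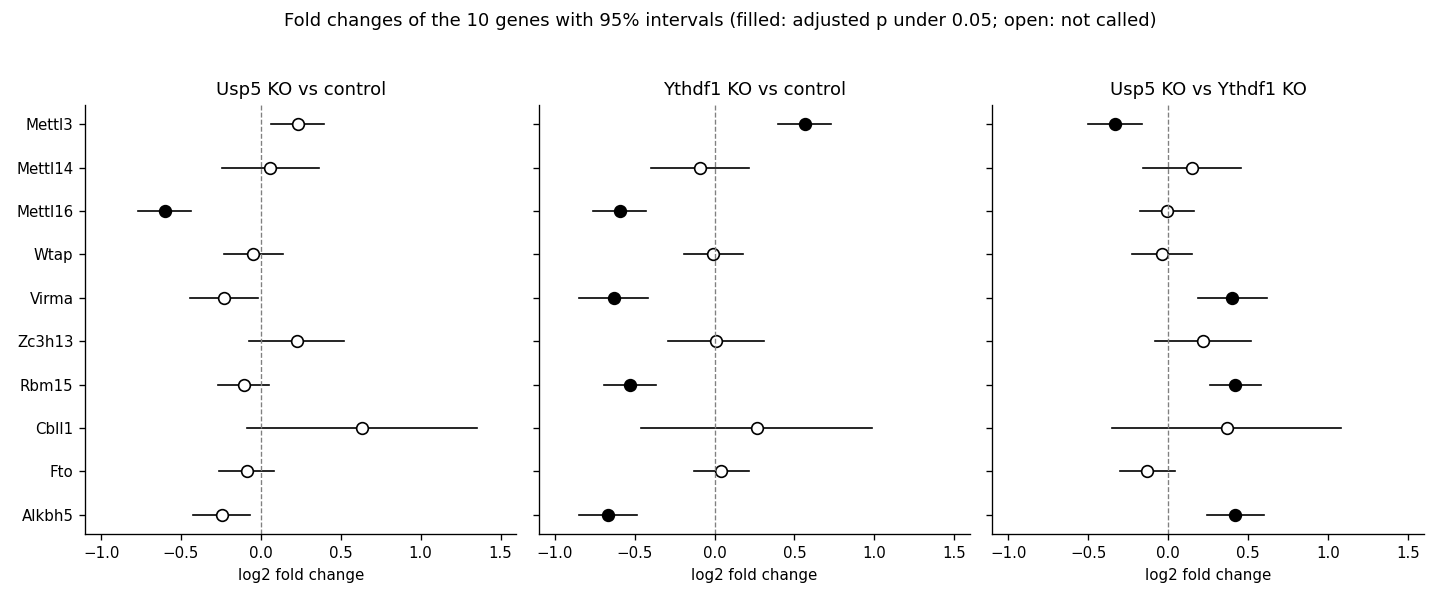
Log2 fold change (horizontal axes) of each gene with its 95% interval in the 3 comparisons, filled where the adjusted p was under 0.05. Mettl16 is filled in both comparisons with control, and Mettl3, Virma, Rbm15 and Alkbh5 in the Ythdf1 KO and between the knockouts.

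How many of the 10 genes passed is read against the share of all tested genes that did. In Usp5 KO against control, 1 of 10 passed the test, against 19.8% of all genes; 1 was lower (9.8% of all genes) and 0 were higher (9.96%). At an unadjusted p under 0.05, edgeR gave 1 higher (17.3% of all genes) and 3 lower (17.3%). DESeq2, at an adjusted p under 0.05, called 3 in all (25% of all genes). The groups did not overlap for 4 of 10, against 33.2%. The median log2 fold change was -0.07 over the 10 genes and -0.01 over all. In Ythdf1 KO against control, 5 of 10 passed, near the 46.5% of all genes that did, with 1 higher (23.7%) and 4 lower (22.8%). The groups did not overlap for 6 of 10, against 57.1%, and the medians were -0.05 over the 10 genes and 0.02 over all. Between Usp5 KO and Ythdf1 KO, 4 of 10 passed, against 48.5%, with 3 higher (23.3%) and 1 lower (25.2%) in Usp5 KO. There, 6 of 10 did not overlap, against 59%, and the medians were 0.18 and 0.00.

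Many of the Ythdf1 KO values moved when trends with base composition and length were removed. That step takes out any difference that follows these trends, technical or not, and their source was not tested. When each library's smooth dependence on GC content and on length was taken out, the log2 fold change in Ythdf1 KO against control was 0.48 for Mettl3 (edgeR, adjusted p = 0.000217) and -0.53 for Alkbh5 (edgeR, adjusted p = 0.000653). Both kept their direction and call. Mettl16 was then at -0.27 (edgeR, adjusted p = 0.00688) and Virma at -0.23 (edgeR, adjusted p = 0.0339), while Rbm15 at -0.13 no longer passed (edgeR, adjusted p = 0.301). Mettl14 at 0.28 (edgeR, adjusted p = 0.0229), Wtap at 0.34 (edgeR, adjusted p = 0.00798), Cbll1 at 0.76 (edgeR, adjusted p = 0.0353) and Fto at 0.19 (edgeR, adjusted p = 0.0365) then passed as higher. In all, 8 of the 10 genes then passed, against 42.7% of all genes in the same fit. In Usp5 KO against control, Mettl16 remained lower at -0.55 (edgeR, adjusted p = 0.000219), and 4 of the 10 genes passed in all, against 25.3% of all genes. The others were Mettl3 at 0.225 (edgeR, adjusted p = 0.0235), Cbll1 at 0.775 (edgeR, adjusted p = 0.0475) and Alkbh5 at -0.252 (edgeR, adjusted p = 0.0483). Between the knockouts, Virma at 0.04 (edgeR, adjusted p = 0.662) and Rbm15 at 0.07 (edgeR, adjusted p = 0.597) no longer passed, and Mettl16 at -0.28 then did (edgeR, adjusted p = 0.00599). There 5 of the 10 passed, against 48.5% of all genes, with 1 higher and 4 lower in Usp5 KO. Before that step 3 were higher and 1 lower, and 2 of those calls were kept. Wtap at -0.295 (edgeR, adjusted p = 0.0137) and Fto at -0.262 (edgeR, adjusted p = 0.00722) were among the new calls.

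**Figure D3:**
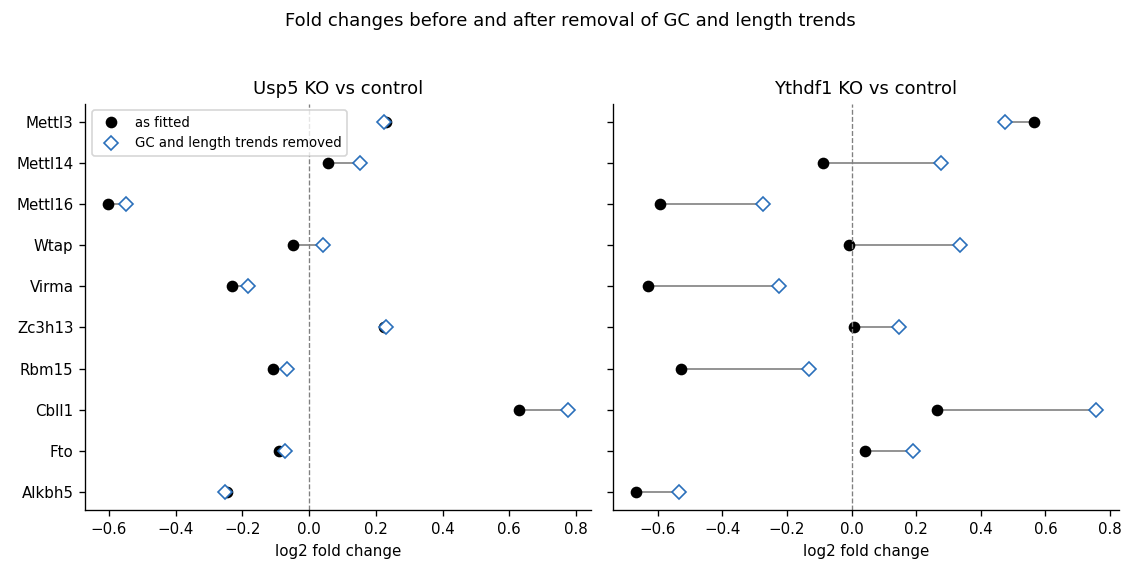
Log2 fold change against control (horizontal axes) of each gene as fitted (filled circles) and after removal of GC and length trends (open diamonds). In Ythdf1 KO, Virma moved to -0.23, Rbm15 to -0.13, Alkbh5 to -0.53 and Mettl3 to 0.48. Mettl16 moved to -0.27, and Mettl14 to 0.28, Wtap to 0.34, Cbll1 to 0.76, Fto to 0.19 and Zc3h13 to 0.15.

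The share of counts from mitochondrial genes differed between libraries of a group. It was 3.67%, 6.14% and 4.04% in Usp5 KO, 3.90%, 4.96% and 3.51% in Ythdf1 KO and 2.33%, 2.32% and 5.91% in control libraries. Mettl14, Wtap, Zc3h13 and Cbll1, 4 of the 10 genes, were highest in the library with the highest share in all 3 groups, as were 12.7% of tested genes. Cbll1 was 1.66-fold higher there than in the other libraries in Usp5 KO, 1.43-fold in Ythdf1 KO and 2.25-fold in control. In the same order, the folds were 1.07, 1.28 and 1.34 for Mettl14 and 1.06, 1.14 and 1.08 for Wtap. For Zc3h13 they were 1.03, 1.16 and 1.43. Alkbh5 was lowest in that library in each group. The part of the mitochondrial share in the results was not tested. Without control replicate 3, Cbll1 rose in Usp5 KO by 1.12 (edgeR, adjusted p = 0.00593) and in Ythdf1 KO by 0.76 (edgeR, adjusted p = 0.0238) on the log2 scale. In the same fit Zc3h13 rose in Usp5 KO by 0.41 (edgeR, adjusted p = 0.00549), and Mettl3 at 0.24 (edgeR, adjusted p = 0.0484) and Alkbh5 at -0.31 (edgeR, adjusted p = 0.00875) passed the test.

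**Figure D4:**
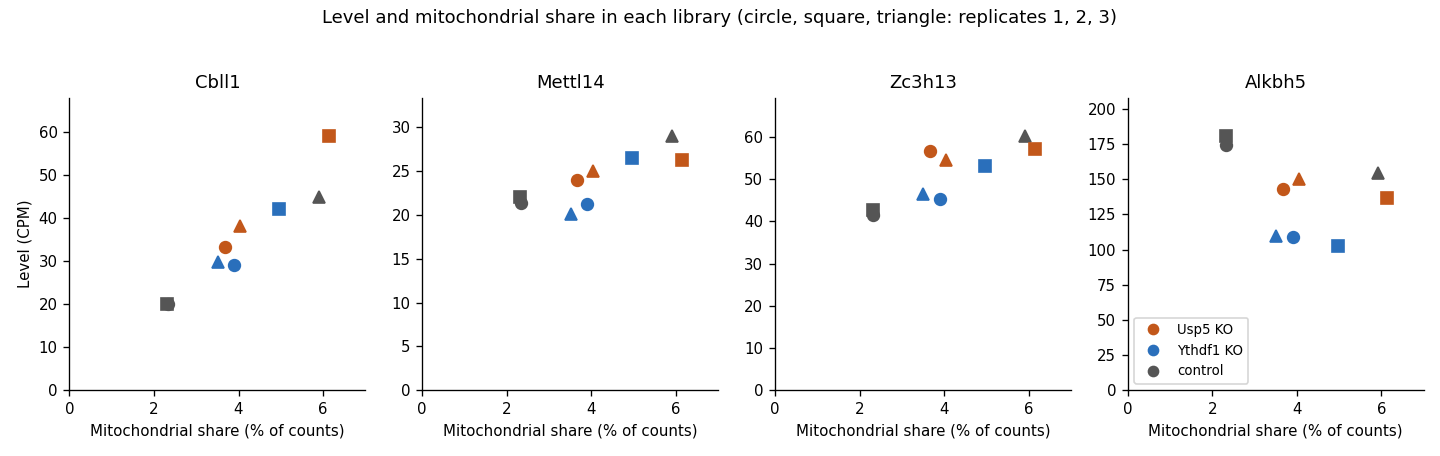
Level in CPM (vertical axes) against the mitochondrial share of counts in percent (horizontal axes) in each of the 9 libraries for Cbll1, Mettl14, Zc3h13 and Alkbh5. Cbll1 lay at 19.97 and 19.98 CPM in the control libraries of low share and at 44.9 CPM in the control library with a share of 5.91%.

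Levels of different genes were compared as CPM per kilobase of the deposited gene length. Wtap and Alkbh5 led in every group, and of this pair Alkbh5 moved more between groups. Wtap averaged 27.9 ± 1.04 in Usp5 KO, 28.7 ± 2.59 in Ythdf1 KO and 28.8 ± 1.52 CPM per kilobase in control cells (SD, n = 3 each). Alkbh5 averaged 25.4 ± 1.17 in Usp5 KO, 19.0 ± 0.658 in Ythdf1 KO and 30.1 ± 2.43 CPM per kilobase in control cells (SD, n = 3 each). In control cells Alkbh5 and Wtap overlapped, and in both knockouts Wtap lay above Alkbh5 in every library. Usp5 KO cells then held, from high to low, Fto, Mettl16, Mettl3, Cbll1, Virma, Zc3h13, Rbm15 and Mettl14, where Mettl3 overlapped with Cbll1, Cbll1 with Virma, and Rbm15 with Mettl14. Ythdf1 KO cells held Fto, Mettl3, Mettl16, Cbll1, Zc3h13, Virma, Mettl14 and Rbm15, with overlap between neighbours only from Cbll1 to Mettl14. Control cells held Mettl16, Fto, Virma, Mettl3, Rbm15, Mettl14, Zc3h13 and Cbll1, with overlap from Rbm15 onward. Mettl3 lay above Mettl16 only in Ythdf1 KO cells, at 16.1 against 14.2 CPM per kilobase, and the order of these genes among groups was not tested. With no length, by CPM, Alkbh5 still led in every group, while Wtap lay below Virma and Mettl16 in control cells. With the deposited effective length in place of the length, a choice added after the data were seen, Wtap led in control cells and Zc3h13 came last.

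Ratios of partner genes within a library do not depend on scaling between libraries, but they do depend on trends with GC content and length. The ratio of Mettl3 to Mettl14, per length, was 1.57, 1.41 and 1.54 in Usp5 KO, 2.34, 1.68 and 2.41 in Ythdf1 KO and 1.49, 1.47 and 1.12 in control libraries. The Ythdf1 KO libraries lay above all others, 1.57-fold above control on average (two-sided exact permutation test, p = 0.1). With GC and length trends removed, an alternative added after the data were seen, the groups overlapped and the log2 difference from control was 0.20, against 0.65 without that step. The ratio of Fto to Alkbh5 was 0.578, 0.710 and 0.629 in Usp5 KO, 0.922, 0.964 and 0.920 in Ythdf1 KO and 0.566, 0.519 and 0.641 in control libraries. Again the Ythdf1 KO libraries lay above all others, 1.63-fold above control (two-sided exact permutation test, p = 0.1), and 1.64-fold with the trends removed. For both ratios Usp5 KO overlapped with control (exact permutation p = 0.3 each). With 3 libraries against 3, 0.1 is the smallest p possible, so none of the 6 tests (2 ratios, 3 comparisons) could pass 0.05.

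**Figure D5:**
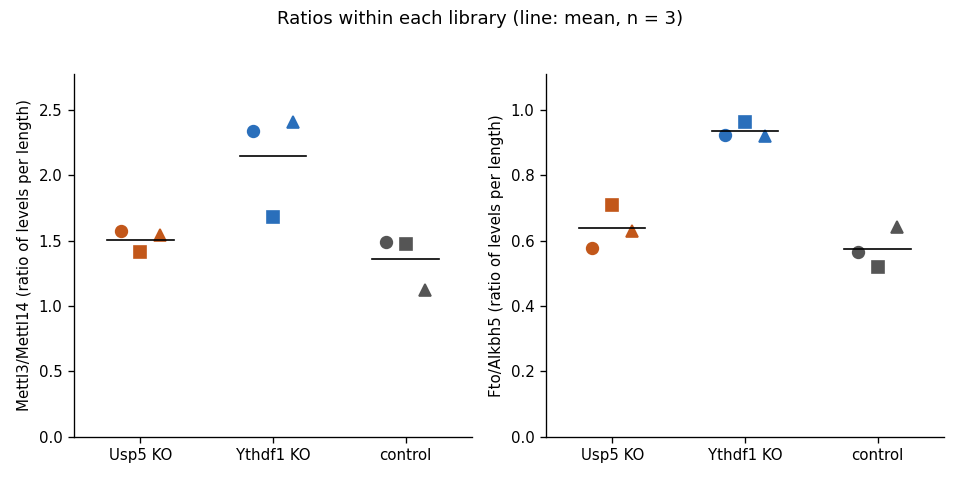
Ratios of levels per length within each library (vertical axes), Mettl3 to Mettl14 on the left and Fto to Alkbh5 on the right, with lines at the means of 3. The Fto to Alkbh5 ratio was 0.920 to 0.964 in Ythdf1 KO and at most 0.710 in the other groups.

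Other genes of the m6A pathway and of methyl donor supply gave a background for these values: 54 were tested of 56 listed. In Usp5 KO against control, 4 were higher (9.96% of all genes) and 5 lower (9.8%). The median log2 fold change of the 54 was -0.03, against -0.01 over all genes. Zcchc4, a methyltransferase of ribosomal RNA, stood at 12.7, 11.1 and 12.7 CPM in Usp5 KO and at 17.0, 18.8 and 17.8 CPM in control libraries. It fell by 0.55 on the log2 scale (edgeR, adjusted p = 0.00221), and this call held without any 1 library. The calls of the other 8 (Mettl5, Igf2bp2, Gnmt and Mettl1 higher, Alkbh8, Adk, Amd1 and Mettl9 lower) each ended without at least 1 library.

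In Ythdf1 KO against control, 13 of the 54 were higher (23.7% of all genes) and 19 lower (22.8%), the targeted Ythdf1 among the 19. The median of the 54 was 0.04, against 0.02 over all genes. Of 14 readers, Ythdf1 itself included, 2 were higher and 8 lower, with a median of -0.39. The call of Ythdf2, 1 of the 2, held in 3 of 9 fits that each left out a library. Hnrnpa2b1, a nuclear RNA-binding protein, averaged 354 ± 22.7 CPM in Ythdf1 KO and 561 ± 47.7 CPM in control cells (SD, n = 3 each; log2 fold change -0.66; edgeR, adjusted p = 0.000286). Hnrnpc, a nuclear RNA-binding protein that reads m6A-exposed sites, averaged 369 ± 6.91 CPM in Ythdf1 KO and 275 ± 1.86 CPM in control cells (log2 fold change 0.43; edgeR, adjusted p = 0.00118). Of 7 other AlkB family dioxygenases, 5 were higher and 1 lower, with a median of 0.41. Alkbh2, 1 of those 5, was at 0.62 and no longer passed with GC and length trends removed (0.06; edgeR, adjusted p = 0.672). Alkbh6 averaged 11.4 ± 1.32 CPM in Ythdf1 KO and 5.82 ± 0.859 CPM in control cells (log2 fold change 0.98; edgeR, adjusted p = 0.000758). Alkbh8, an enzyme of transfer RNA modification, was at -0.82 (edgeR, adjusted p = 0.00136), and at -0.35 with GC and length trends removed. Of 11 other adenosine methyltransferases and partners, 2 were higher and 3 lower, and of 9 other methyltransferase-like genes, 2 were higher and 1 lower. Removal of the trends also ended the calls of Zcchc4 (-0.13; edgeR, adjusted p = 0.275) and Mettl2 (0.15; edgeR, adjusted p = 0.277).

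Of 13 genes of the S-adenosylmethionine cycle tested, 2 were higher (23.7% of all genes) and 6 lower (22.8%) in Ythdf1 KO against control. Amd1, 1 of the 6, was at -0.58 and no longer passed with GC and length trends removed (-0.21; edgeR, adjusted p = 0.104). Mtrr, 1 of the 2, passed in 1 of 9 fits that each left out a library, the fit without Usp5 KO replicate 3. Mat2a, the synthetase whose mRNA METTL16 methylates, stood at 259, 282 and 321 CPM in Usp5 KO, at 192, 200 and 188 CPM in Ythdf1 KO and at 309, 318 and 330 CPM in control libraries. The Ythdf1 KO libraries lay below all others, while Usp5 KO overlapped with control. Mat2a changed by -0.72 ± 0.0887 in Ythdf1 KO (edgeR, adjusted p = 0.000153), or by -0.42 with GC and length trends removed, and its log2 fold change in Usp5 KO was -0.15 ± 0.0881 (edgeR, adjusted p = 0.259). Usp5 KO against Ythdf1 KO gave 0.57 for Mat2a (edgeR, adjusted p = 0.000507). Nnmt, which uses up the methyl donor, averaged 20.04 ± 2.77 CPM in Ythdf1 KO and 9.55 ± 1.97 CPM in control cells (log2 fold change 1.06; edgeR, adjusted p = 0.000425). Rbm15b, a paralog of Rbm15, was at -0.17 in Usp5 KO (edgeR, adjusted p = 0.192) and 0.16 in Ythdf1 KO (edgeR, adjusted p = 0.16), and differed between Usp5 KO and Ythdf1 KO at -0.32 (edgeR, adjusted p = 0.0105). That call ended without Usp5 KO replicate 2, Ythdf1 KO replicate 1 or Ythdf1 KO replicate 3 (edgeR, adjusted p up to 0.0671). Pcif1, which methylates adenosine next to the cap, was at 0.19 in Usp5 KO (edgeR, adjusted p = 0.211) and 0.26 in Ythdf1 KO (edgeR, adjusted p = 0.0643), and at -0.06 between Usp5 KO and Ythdf1 KO (edgeR, adjusted p = 0.649).

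Between Usp5 KO and Ythdf1 KO, 14 of the 54 were higher in Usp5 KO (23.3% of all genes) and 15 lower (25.2%). Ythdf1, the gene targeted in the Ythdf1 KO, was among the 14 and among the 7 readers counted next. By list, 7 readers were higher and 2 lower, 0 AlkB genes were higher and 5 lower by edgeR at either the adjusted threshold or an unadjusted p under 0.05 (27.1% of all genes higher and 28.6% lower at the unadjusted one), and 4 genes of the S-adenosylmethionine cycle were higher and 2 lower. These comparisons share libraries with those against control.

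The genes most like Alkbh5, Virma and Mettl16 were ranked by the root mean square difference of log2 CPM, centred over the 9 libraries. For Alkbh5 they were Recql at 0.046, Ptpn9 at 0.05 and Spag5 at 0.054, against a median of 0.41 over all tested genes. For Virma they were Phkb at 0.041, Polr2b at 0.042 and Nr2c2 at 0.047. For Mettl16 they included Slc30a7 at 0.059 and Snx7 at 0.064. Snx7, for example, averaged 21.9 CPM in Usp5 KO, 22.1 CPM in Ythdf1 KO and 32.2 CPM in control cells. All points of these profiles share libraries and depth. The listed genes were picked as the closest, so values far under the median were set by that choice.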

How the data were processed

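RNA of 9 Hepa 1-6 samples was sequenced from mRNA libraries. The authors deposited 1 table of estimated counts, written as whole numbers and taken here as rounded estimates, with a length for each gene. The submitters' processing notes name Salmon 1.9.0, STAR 2.7.10a, fastp 0.23.2 and the build GRCm39, with no role or order. Neither the annotation release nor the use of strand is given in the sources used here, and overlapping genes and near-identical copies can share reads. Groups were taken from sample titles. The labels do not say that replicates were separate cultures, and p-values therefore reflect the spread of these libraries alone, possibly a technical one.

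Counts were scaled by TMM, filtered with filterByExpr and tested in edgeR 4.0.16 (R 4.3.3, limma 3.58.1) by the quasi-likelihood test in 1 fit of the 9 libraries on group. Benjamini-Hochberg adjustment ran over 13661 genes, and a gene was called at an adjusted p under 0.05. Fold changes are log2, and CPM are counts over the library total times its TMM factor. The fit was also run on simulated counts that held no GC or length trend, and the outcome is not given here. GC content came from GENCODE M21 transcripts of another build, matched by identifier for 99.9% of tested genes. Alternatives were DESeq2 1.42.0, limma-voom, scaling by RLE or by library size only, 2 filters, a fit of the compared groups, a replicate block, GC and length trends, stricter thresholds and leaving out each library. The fit without the library of highest mitochondrial share in each group, lengths from the effective length column, and ratios with the trends removed were added after the data had been seen.

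The genes and lists were chosen with earlier results of these data known. Named were all 10 genes, both targets, Mat2a, Rbm15b and Pcif1, and from each pathway list up to 3 called genes per direction, of which the examples printed were picked after their values were seen. Likeness was computed for the 3 called genes of largest fold change, and 1 gene of that ranking is not reported here.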

Additional observations from a re-analysis of the deposited data

How the results depend on the processing

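The 10 calls among the 30 tests of these genes, 1 in Usp5 KO against control, 5 in Ythdf1 KO against control and 4 between Usp5 KO and Ythdf1 KO, held without each of the 9 libraries in turn, under RLE scaling, library sizes alone, DESeq2, limma-voom, the stricter filter and the fit of the compared groups. Without a filter 1 was lost, Mettl3 between the knockouts at -0.29 (edgeR, adjusted p = 0.051). Removal of GC and length trends ended 3 of the 10 calls, and 4 with the replicate block added. The threshold of 0.5 on the log2 fold change ended 4. Counting precision is limited most in the library of 24760877 counts, control replicate 3. Its mitochondrial share was 5.91%, the highest of the control group. Without this library 6 of the other 20 tests passed as well, and the cause was not tested.

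In Usp5 KO against control, the number of the 10 genes called, with the share of all genes called in the same fit, was 2 with library sizes alone (20.9%), 2 without a filter (11.9%), 2 with the stricter filter (21.2%), 3 by DESeq2 (25%), 4 with GC and length trends removed (25.3%), 5 without the library of highest mitochondrial share in each group (25.6%), and 1 to 5 when each library was left out (5 without control replicate 3, with 31.2% of all genes). In Ythdf1 KO it was 8 with the trends removed (42.7%). Between the knockouts it was 7 without the libraries of highest mitochondrial share (49.6%) and 0 when a log2 fold change of at least 0.5 was also asked for. Over all genes, Usp5 KO gave 1305 calls at an adjusted p under 0.01, 1675 with the fold threshold, 1756 in a fit of the compared groups and 1494 to 4371 when each library was left out (4371 without control replicate 3, 1494 without control replicate 2, 1736 without control replicate 1, 1626 without Usp5 KO replicate 2). The fold threshold left 4085 calls in Ythdf1 KO and 4342 between the knockouts, where an adjusted p under 0.01 left 4363.

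Values that had not passed the test turned round, and the cause was not tested. For Zc3h13 in Ythdf1 KO the log2 fold change was -0.005 under RLE scaling, -0.127 with library sizes alone, -0.006 by DESeq2, -0.039 without a filter, -0.029 in the fit of the compared groups and -0.099 to 0.197 without each library. For Mettl16 between the knockouts it was 0.012 under RLE scaling, 0.051 with library sizes alone, 0.011 by DESeq2, 0.032 without a filter, 0.045 without the libraries of highest mitochondrial share and -0.037 to 0.047 without each library. Library sizes alone also gave -0.021 for Mettl14 in Usp5 KO, -0.1 for Fto and -0.08 for Usp5 in Ythdf1 KO, and 0.018 for Wtap between the knockouts. Fto in Ythdf1 KO was at -0.007 without a filter, and Wtap between the knockouts at 0.027 without the libraries of highest mitochondrial share. Removal of the trends gave 0.042 for Wtap in Usp5 KO, 0.277 for Mettl14, 0.337 for Wtap, -0.033 for Pcif1 and -0.162 for Usp5 in Ythdf1 KO, and -0.125 for Mettl14 and 0.157 for Pcif1 between the knockouts. It also moved the log2 difference of the Mettl3 to Mettl14 ratio to 0.198 in Ythdf1 KO against control and to -0.123 between the knockouts. Without each library, Mettl14 ran from -0.024 to 0.207 in Usp5 KO and from -0.252 to 0.059 in Ythdf1 KO. Wtap ran from -0.108 to 0.03 and Usp5 from -0.031 to 0.135 in Ythdf1 KO, and Wtap from -0.076 to 0.057 and Pcif1 from -0.122 to 0.025 between the knockouts.

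Samples of the same number did not all deviate together: correlations of their deviations from group means were 0.298, -0.116 and 0.15 between Usp5 KO and control, 0.127, -0.178 and -0.257 between Ythdf1 KO and control, and 0.19, 0.088 and -0.004 between Usp5 KO and Ythdf1 KO, so that only number 1 was above 0.1 in all 3 comparisons. Not every sample correlated best with its own number. With a replicate block, 1, 5 and 4 of the 10 genes were called in the 3 comparisons and 2346, 6198 and 6458 of all genes. The replicate block together with removal of the trends gave 0.042 for Wtap in Usp5 KO, 0.276 for Mettl14, 0.341 for Wtap, -0.032 for Pcif1 and -0.161 for Usp5 in Ythdf1 KO, and -0.125 for Mettl14 and 0.156 for Pcif1 between the knockouts. It called 1 of the 10 genes in Usp5 KO (20.4% of all genes), 6 in Ythdf1 KO (39.5%) and 5 between the knockouts (45.6%), and Virma in Ythdf1 KO then lost its call (edgeR, adjusted p = 0.0567).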
